A study of Mus musculus with 8 samples.

Results

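The myeloid C-type lectin receptors described here are 10 genes, *Clec4a1*, *Clec4a2*, *Clec4a3*, *Clec4d*, *Clec4e*, *Clec4n*, *Clec5a*, *Clec7a*, *Clec10a* and *Clec12a*, chosen by gene symbol among the 55401 rows of the count table. All 10 were among the 15202 genes tested. Poly(A) RNA-seq was run on hepatic macrophages of C57BL/6J mice that had been isolated with anti-F4/80 antibodies on magnetic columns. The cells were cultured for 24 h with either vehicle (Veh) or cholesterol crystals at 500 μg/ml (CC). The 4 groups held 2 libraries each. Normal livers came from wild-type mice on a standard diet, and steatotic livers from MC4R-KO mice on a Western diet for 6 to 10 wk. Genotype and diet therefore changed together, and their effects cannot be told apart. The methods give an age for mice fed longer to induce steatohepatitis but not for the mice used here. They do not say whether the 2 libraries of a group came from separate animals, so p-values measure only the spread between these libraries.

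C-type lectin receptors are membrane proteins with a carbohydrate-recognition-like domain that bind sugars and lipids of microbes and of dying cells. Some, such as Mincle, MCL and Dectin-2, couple to the FcRγ adaptor, and others carry their own activating or inhibitory tyrosine motif. The activating receptors recruit SYK and the CARD9, BCL10 and MALT1 complex to induce cytokines, whereas DCIR, encoded by *Clec4a2*, and CLEC12A can recruit phosphatases that dampen this signal. Mincle, encoded by *Clec4e*, is known as a sensor of dying cells and of mycobacterial glycolipid.

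Total counts per library ranged from 58668655 to 74529462. *Mc4r*, the gene targeted in MC4R-KO mice, had 0 counts in the 4 libraries labelled normal and 22 to 72 counts in the 4 labelled steatotic. This check of the targeted gene went against the labels, and whether the altered allele still gives reads is not given in the sources used here. The words normal and steatotic below therefore stand for the labels. Defining macrophage genes were abundant, with a sum of 9700 to 15800 CPM (counts scaled by the library total) over 7 markers. Markers of other cells moved with the label. The sum of 7 monocyte markers was 8.3 to 12.3 CPM in normal and 121 to 144 CPM in steatotic libraries, that of 8 T or NK cell markers 0.665 to 1.33 and 11.5 to 15.7 CPM, and that of 8 hepatocyte markers 50.7 to 60.9 and 2.26 to 2.67 CPM. The sum of 10 neutrophil markers was 138 to 151 CPM in normal, 249 and 259 CPM in steatotic Veh and 385 and 390 CPM in steatotic CC libraries, carried by *Mmp8* and *Csf3r*, while *Ly6g* was at 0 in all libraries and *S100a9* reached 0.282 CPM. The 7 stellate cell markers summed to 4.33 to 9.73 CPM in normal, 18.8 to 22.5 CPM in steatotic Veh and 109 to 137 CPM in steatotic CC libraries. *Dcn* alone carried the last rise, at 135 and 108 CPM in steatotic CC, where *Lrat* and *Des* were at 0, *Col1a1*, *Col3a1* and *Pdgfrb* at most 0.381 CPM and *Rgs5* at 1.07 and 1.15 CPM. The 7 endothelial cell markers summed to 142 to 174 and 217 to 246 CPM, the 10 dendritic cell markers to 7.03 to 15.8 and 9.77 to 11.7 CPM, and the 5 B cell markers to 1.72 to 2.86 and 1.2 to 3.02 CPM. The 7 Kupffer cell markers summed to 3060 and 3120 CPM in normal Veh, 2400 and 2600 CPM in normal CC, 4460 and 4500 CPM in steatotic Veh, and 2930 and 3450 CPM in steatotic CC. The part of these cells in the receptor levels was not tested, and in bulk RNA fewer cells of a type and less RNA per cell cannot be told apart.

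The 10 receptors split into 2 sets by their response to CC. The DCIR-type genes *Clec4a1*, *Clec4a2* and *Clec4a3*, the inhibitory *Clec12a* and the galactose-type *Clec10a* fell with both labels. The FcRγ-coupled *Clec4n*, *Clec4d* and *Clec4e* and the DAP12-coupled *Clec5a* rose with both. *Clec7a* rose in steatotic libraries and was not called in normal ones. Kupffer cell markers fell beside the first set, 4 of 7 with CC in normal and 6 of 7 in steatotic macrophages, where 1 rose. Among them *Vsig4*, a complement receptor, fell 4.8-fold and 6.76-fold. Of 7 macrophage markers 5 fell in normal and 4 in steatotic macrophages, where 1 rose. Beside the rising receptors, the neutrophil markers *Mmp8* (1.6-fold in normal and 2.55-fold in steatotic macrophages) and *S100a8* (1.58-fold and 3.91-fold) rose with CC, and *Csf3r* fell (1.31-fold and 1.19-fold). *Dcn*, of the stellate cell list, rose 3.09-fold and 6.44-fold. Of 6 tested endothelial markers 1 rose in normal, and 3 rose and 1, *Pecam1*, fell in steatotic macrophages. The monocyte marker *Vcan* fell 1.51-fold in normal and rose 2.34-fold in steatotic macrophages. It was the only called one of the 7 monocyte markers in normal macrophages. In steatotic macrophages 1 rose and 1, *Ccr2*, fell (1.69-fold). Of all tested genes, 6.27% rose and 5.54% fell with CC in normal, and 12.0% rose and 10.9% fell in steatotic macrophages. The part of these genes' cells in the receptor changes was not tested. *Clec4e* rose most, 2.07-fold in normal and 7.07-fold in steatotic macrophages. It was also the receptor whose level relative to the normal liver turned over, lower with Veh and higher with CC.

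**Figure D1:**
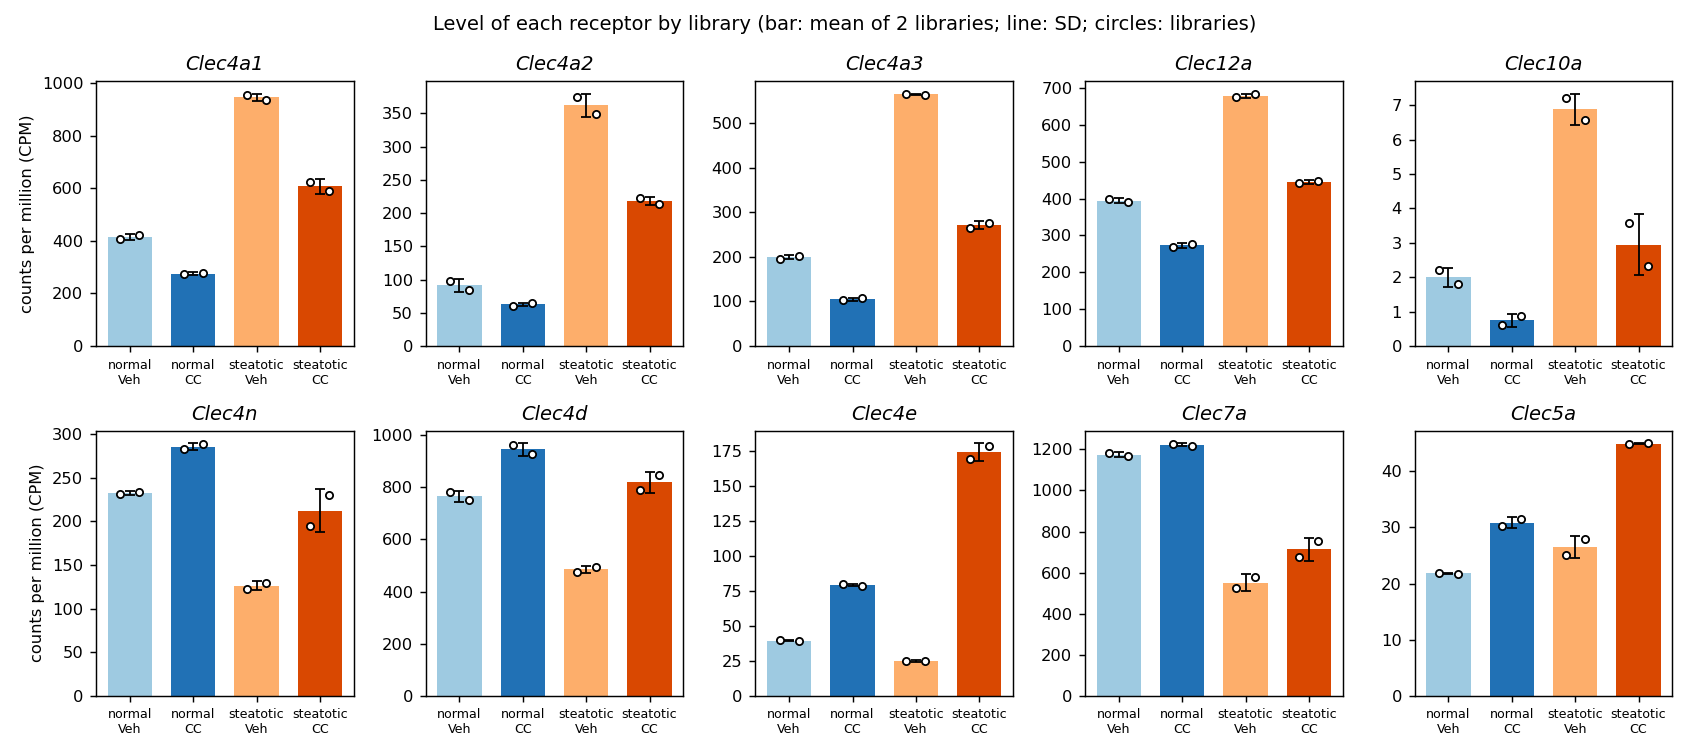
Level of each of the 10 receptors in CPM (vertical axis, starting at 0) in the 4 groups. Bars are means of 2 libraries, lines the SD and circles the libraries; the 5 genes of the upper row fall with CC, and *Clec4e* reaches 174 CPM in steatotic CC.

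The DCIR-type receptors are close relatives that lie near each other on chromosome 6, and of these *Clec4a2* carries an inhibitory tyrosine motif. *Clec4a1* stood at 405 and 422 CPM in normal Veh, 273 and 279 CPM in normal CC, 955 and 935 CPM in steatotic Veh, and 625 and 587 CPM in steatotic CC. The 4 groups did not overlap, and both steatotic groups lay above both normal ones. By edgeR's quasi-likelihood test with Benjamini-Hochberg adjustment over all tested genes, steatotic Veh exceeded normal Veh 2.36-fold (log2 1.24 ± 0.0434 SE, adjusted p = 1.5e-06). CC lowered *Clec4a1* by 1.46-fold in normal (adjusted p = 0.000254) and 1.54-fold in steatotic macrophages (adjusted p = 4.94e-05). The difference between these responses was -0.07 on the log2 scale (95% interval -0.21 to 0.07, adjusted p = 0.674).

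*Clec4a2*, which encodes DCIR, stood at 98.4 and 83.8 CPM in normal Veh, 60.9 and 64.1 CPM in normal CC, 374 and 350 CPM in steatotic Veh, and 222 and 214 CPM in steatotic CC. Its lowest steatotic library lay more than 2-fold above its highest normal one. It had the greatest fold of the 10 receptors between livers with Veh, 4.1-fold (log2 2.04 ± 0.0803 SE, adjusted p = 2.82e-06 by edgeR). With CC it was lower by 1.42-fold in normal (adjusted p = 0.00591) and 1.64-fold in steatotic macrophages (adjusted p = 0.000514). The normal call was lost without normal CC replicate 1 (adjusted p = 0.0505). Of the 75-base stretches in its annotated transcripts, 3.24% also occur in *Clec4a4* or *Clec4b1*, so a small part of its reads could be shared.

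*Clec4a3* stood at 196 and 203 CPM in normal Veh, 103 and 107 CPM in normal CC, 566 and 564 CPM in steatotic Veh, and 265 and 277 CPM in steatotic CC. Both steatotic groups lay above both normal ones, and the nearest libraries of steatotic CC and normal Veh were 30.7% apart. It was 2.92-fold higher in steatotic than in normal Veh (log2 1.55 ± 0.0416 SE, adjusted p = 5.77e-07 by edgeR). Its fall was 1.86-fold in normal (log2 -0.89 ± 0.0411 SE, adjusted p = 3.13e-05 by edgeR) and 2.06-fold in steatotic macrophages (log2 -1.04 ± 0.0411 SE, adjusted p = 3.69e-06). The difference of the responses was -0.15 on the log2 scale with an adjusted p of 0.289.

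*Clec12a*, an inhibitory receptor for uric acid crystals, stood at 399 and 390 CPM in normal Veh, 268 and 277 CPM in normal CC, 675 and 683 CPM in steatotic Veh, and 442 and 449 CPM in steatotic CC. Its 4 groups kept the order of the DCIR-type genes. Steatotic Veh exceeded normal Veh 1.78-fold (adjusted p = 3.06e-06 by edgeR), and CC lowered it 1.41-fold in normal (adjusted p = 0.00014) and 1.51-fold in steatotic macrophages (adjusted p = 2.11e-05).

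*Clec10a*, the macrophage galactose-type lectin, was scarce. It stood at 2.2 and 1.8 CPM in normal Veh, 0.609 and 0.886 CPM in normal CC, 7.2 and 6.56 CPM in steatotic Veh, and 3.57 and 2.32 CPM in steatotic CC. The groups did not overlap, but the 2 steatotic CC libraries differed more from each other than those of any other receptor in relative terms. It was 3.56-fold higher in steatotic than in normal Veh (log2 1.83 ± 0.27 SE, adjusted p = 0.00171 by edgeR) and fell with CC by 2.6-fold in normal (adjusted p = 0.0203) and 2.31-fold in steatotic macrophages (adjusted p = 0.014). The CC calls were lost when single libraries were left out, with adjusted p up to 0.113 and 0.068. *Mgl2*, which shares 4.44% of the 75-base stretches of *Clec10a*, had 0 counts.

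The FcRγ-coupled receptors moved the other way. *Clec4n*, which encodes Dectin-2, stood at 231 and 234 CPM in normal Veh, 283 and 289 CPM in normal CC, 123 and 130 CPM in steatotic Veh, and 195 and 230 CPM in steatotic CC. Steatotic CC came up to the level of normal Veh, with 0.473% between the nearest libraries, and overlapped it once CPM were scaled by the TMM factors. *Clec4n* was 1.78-fold lower in steatotic than in normal Veh (log2 -0.83 ± 0.073 SE, adjusted p = 0.000114 by edgeR). It rose 1.26-fold with CC in normal (adjusted p = 0.0239) and 1.7-fold in steatotic macrophages (adjusted p = 0.000246). The normal call was lost when any 1 of its 4 libraries was left out (adjusted p 0.0936 to 0.12).

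*Clec4d*, which encodes MCL, the partner of Mincle, stood at 782 and 752 CPM in normal Veh, 962 and 929 CPM in normal CC, 476 and 496 CPM in steatotic Veh, and 792 and 848 CPM in steatotic CC. Its highest group was normal CC and its lowest steatotic Veh, which was 1.53-fold below normal Veh (log2 -0.61 ± 0.0451 SE, adjusted p = 4.69e-05 by edgeR). CC raised it 1.26-fold in normal (log2 0.34 ± 0.0449 SE, adjusted p = 0.00282 by edgeR) and 1.71-fold in steatotic macrophages (log2 0.77 ± 0.0452 SE, adjusted p = 2.21e-05). The larger rise in steatotic macrophages passed the test of the difference, 0.43 on the log2 scale (adjusted p = 0.0123), which became 0.0566 without normal CC replicate 2.

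*Clec4e*, which encodes Mincle, stood at 39.6 and 38.9 CPM in normal Veh, 79.7 and 78.4 CPM in normal CC, 25.2 and 24.6 CPM in steatotic Veh, and 170 and 179 CPM in steatotic CC. The steatotic libraries were the lowest with Veh and the highest with CC, with no overlap of groups. With Veh it was 1.53-fold lower in steatotic macrophages (log2 -0.61 ± 0.0461 SE, adjusted p = 5.35e-05 by edgeR), and with CC it was 2.24-fold higher (log2 1.16 ± 0.0459 SE, adjusted p = 2.49e-06). CC raised it by log2 1.05 ± 0.0461 SE in normal (adjusted p = 3.03e-05) and 2.82 ± 0.0487 SE in steatotic macrophages (adjusted p = 2.47e-07). The difference of the responses was 1.78 on the log2 scale (95% interval 1.62 to 1.93), 3.42-fold, with an adjusted p of 6.79e-05. By p-value it ranked 2 of 15202 genes in the CC response of steatotic macrophages and 2 in the difference of the responses.

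*Clec4e* changed in the same direction as its partner *Clec4d* with CC, by a larger amount. Per 100 counts of *Clec4d* there were 5.06 and 5.18 counts of *Clec4e* in normal Veh, 8.29 and 8.44 in normal CC, 5.29 and 4.96 in steatotic Veh, and 21.4 and 21.1 in steatotic CC. The ratio was alike in the Veh groups and highest in steatotic CC.

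*Clec7a*, which encodes Dectin-1, the β-glucan receptor with its own activating motif, had the highest CPM of the 10 in normal libraries. It stood at 1184 and 1167 CPM in normal Veh, 1228 and 1218 CPM in normal CC, 523 and 580 CPM in steatotic Veh, and 675 and 754 CPM in steatotic CC. Both normal groups lay above both steatotic groups. It was 2.06-fold lower in steatotic than in normal Veh (log2 -1.05 ± 0.0631 SE, adjusted p = 1.93e-05 by edgeR). With CC the log2 difference was 0.09 in normal (95% interval -0.05 to 0.24, adjusted p = 0.409) and 0.39 in steatotic macrophages (adjusted p = 0.00346). These 2 responses were not shown to differ (0.30 on the log2 scale, 95% interval 0.09 to 0.50, adjusted p = 0.158). The annotation classes *Clec7a* as a polymorphic pseudogene.

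*Clec5a*, which encodes MDL-1 and couples to the DAP12 adaptor, stood at 21.9 and 21.8 CPM in normal Veh, 30.2 and 31.5 CPM in normal CC, 25.1 and 27.9 CPM in steatotic Veh, and 45 and 45 CPM in steatotic CC. It was the one receptor that was higher both in steatotic macrophages with Veh and with CC in each liver. Its rise was 1.45-fold in normal (adjusted p = 0.00306 by edgeR) and 1.72-fold in steatotic macrophages (adjusted p = 0.000209). The difference with Veh was small, 1.25-fold (adjusted p = 0.0119), and was lost in 3 fits that left out a library (adjusted p 0.0522 to 0.0725).

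With CC, the liver difference kept its direction for each receptor but *Clec4e*. In steatotic CC *Clec10a* was 4.01-fold, *Clec4a2* 3.56-fold, *Clec4a3* 2.63-fold and *Clec4a1* 2.24-fold above normal CC. *Clec12a* was 1.66-fold and *Clec5a* 1.48-fold above it. *Clec7a* was 1.68-fold and *Clec4n* 1.32-fold below it. All of these passed the threshold by edgeR, with adjusted p from 9.36e-07 for *Clec4a3* to 0.00503 for *Clec4n*. The difference for *Clec4d* had narrowed to 1.13-fold lower (adjusted p = 0.0207), a call lost without normal CC replicate 1 (adjusted p = 0.111) or steatotic CC replicate 1 (adjusted p = 0.0971).

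In the difference of the CC responses, *Clec4n* had nearly the same value as *Clec4d*, 0.43 on the log2 scale (95% interval 0.19 to 0.67), with an adjusted p of 0.0786. It passed with DESeq2 (adjusted p = 0.0179). *Clec4a2* stood at -0.21 (95% interval -0.46 to 0.05), *Clec12a* at -0.10 (-0.21 to 0.02), *Clec5a* at 0.24 (0.01 to 0.48) and *Clec10a* at 0.17 (-0.73 to 1.07), none of them called by edgeR. The interval of *Clec10a* spans changes in either direction.

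Across the 10, steatotic Veh exceeded normal Veh for 6 and lay below it for 4, whereas 16.4% of all tested genes were called higher and 14.3% lower. With CC in normal macrophages 4 rose and 5 fell (6.27% and 5.54% of all genes), and in steatotic macrophages 5 rose and 5 fell (12.0% and 10.9%). The difference of the responses was called for 2, both upward, against 1.95% upward and 1.27% downward of all genes. Between the livers with CC, 7 were higher and 3 lower (15.9% and 12.9%). The receptors were mostly well expressed, and of the 9116 genes with a mean log2 CPM above 3, 37.8% were called between the livers with Veh, 17.5% with CC in normal, 31.4% with CC in steatotic macrophages, 4.75% in the difference of the responses and 35.5% between the livers with CC. The median log2 difference of the 10 was 0.58 between the livers with Veh, -0.20 with CC in normal, -0.10 with CC in steatotic macrophages, 0.21 in the difference of the responses and 0.95 between the livers with CC, where the median over all tested genes lay between -0.01 and 0.01. The 4 groups of CPM did not overlap for 10 of 10 receptors, against 17.8% of all tested genes. With CPM scaled by the TMM factors used in the fit, an alternative chosen after seeing the data, they did not overlap for 9 of 10, against 17.6%. The exception was *Clec4n*, at 225 and 228 in normal Veh and 199 and 234 in steatotic CC.

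**Figure D2:**
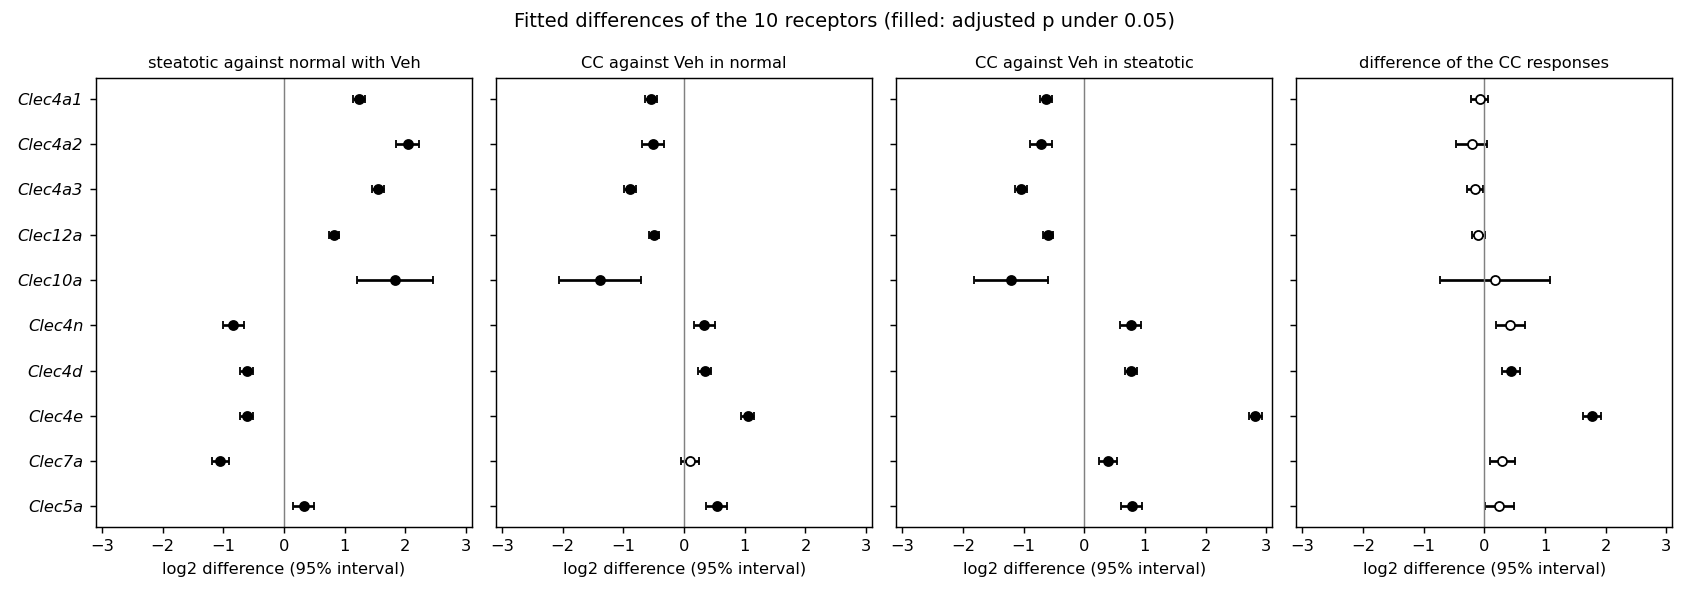
Fitted log2 differences of the 10 receptors with 95% intervals in 4 comparisons (horizontal axis; filled points have an adjusted p under 0.05). The CC responses point the same way in both livers for each receptor, and *Clec4e*, at 1.78, and *Clec4d*, at 0.43, are filled in the panel of the difference of the responses.

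The CC comparisons in normal and in steatotic macrophages share no library. In them the sign was the same for 10 of 10 receptors and for 69.8% of all tested genes. Both comparisons called 9 receptors with the same sign, against 9.64% of all genes. Of the 9116 genes with a mean log2 CPM above 3, 74.3% had the same sign and 1333 were called in both with it. The comparisons between livers with Veh and with CC share no library either. They called 9 receptors with the same sign, against 20.6% of all genes, and 1, *Clec4e*, with opposite signs, against 0.401%. Of the 9116 genes above 3, 2354 were called with the same sign and 53 with opposite signs. The comparison between livers with Veh shares its Veh libraries with each CC comparison, so opposite directions in them are given only as values.

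The summed level of the 10 receptors moved little, from 0.327% to 0.38% of all counts, while its makeup shifted. Of the 6 receptors of the chromosome 6 stretch named below, the DCIR-type genes *Clec4a1*, *Clec4a2* and *Clec4a3* made up 39.9% and 40.9% of the counts in normal Veh, 24.8% and 25.8% in normal CC, 75.2% and 74% in steatotic Veh, and 49% and 46.2% in steatotic CC. The 4 groups did not overlap in this share.

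Per kilobase of annotated exon, *Clec4d* had the highest level in normal Veh, normal CC and steatotic CC, and *Clec4a1* in steatotic Veh. *Clec10a* had the lowest level per kilobase in each group. Only *Clec4a2* and *Clec12a*, neighbours in this order in steatotic Veh, overlapped between their libraries. With the longest coding transcript in place of all exons, *Clec4d*, *Clec4a1* and *Clec10a* kept these places, while the order of others changed in each group. *Clec12a* then lay above *Clec4a3* in normal Veh and normal CC, above *Clec4n* in steatotic CC, and above *Clec7a* and *Clec4a2* in steatotic Veh. *Clec4e* then lay above *Clec4a2* in normal CC and above *Clec5a* in steatotic Veh.

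Of the receptors, 6 lie in 1 stretch of chromosome 6, chr6:122921848-123289870 in GRCm38 (GENCODE M21), which is 368.0 kb long and holds 13 annotated genes, 8 of them tested. Along it the tested genes fell in 2 blocks. From the *Clec4a1* end, *Clec4a1*, *Clec4a3*, *Clec4a4*, *Clec4b1* and *Clec4a2* were all higher in steatotic than in normal Veh, from log2 1.24 for *Clec4a1* to 3.92 for *Clec4b1*. *Clec4n*, *Clec4d* and *Clec4e*, at the other end, were all lower. With CC the first block was lower and the second higher with both labels, except that *Clec4a4*, at up to 3.47 CPM, was not called (log2 -0.67, adjusted p = 0.311 in normal; log2 -1.06, adjusted p = 0.0525 in steatotic macrophages). *Clec4b1* averaged 0.448 CPM in normal Veh, 0.032 CPM in normal CC, 6.6 CPM in steatotic Veh and 0.807 CPM in steatotic CC. Its normal CC level lies under that of 3 counts (0.0481 and 0.0511 CPM in those libraries), so its fall in normal macrophages rests on few counts and no size is given for it. *Clec4b1* is known from dendritic cells, and its part in these levels was not tested. Between the blocks, *Clec4b2* stayed at or below 0.0585 CPM and was not tested. The split was seen in these values and has no test of its own.

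**Figure D3:**
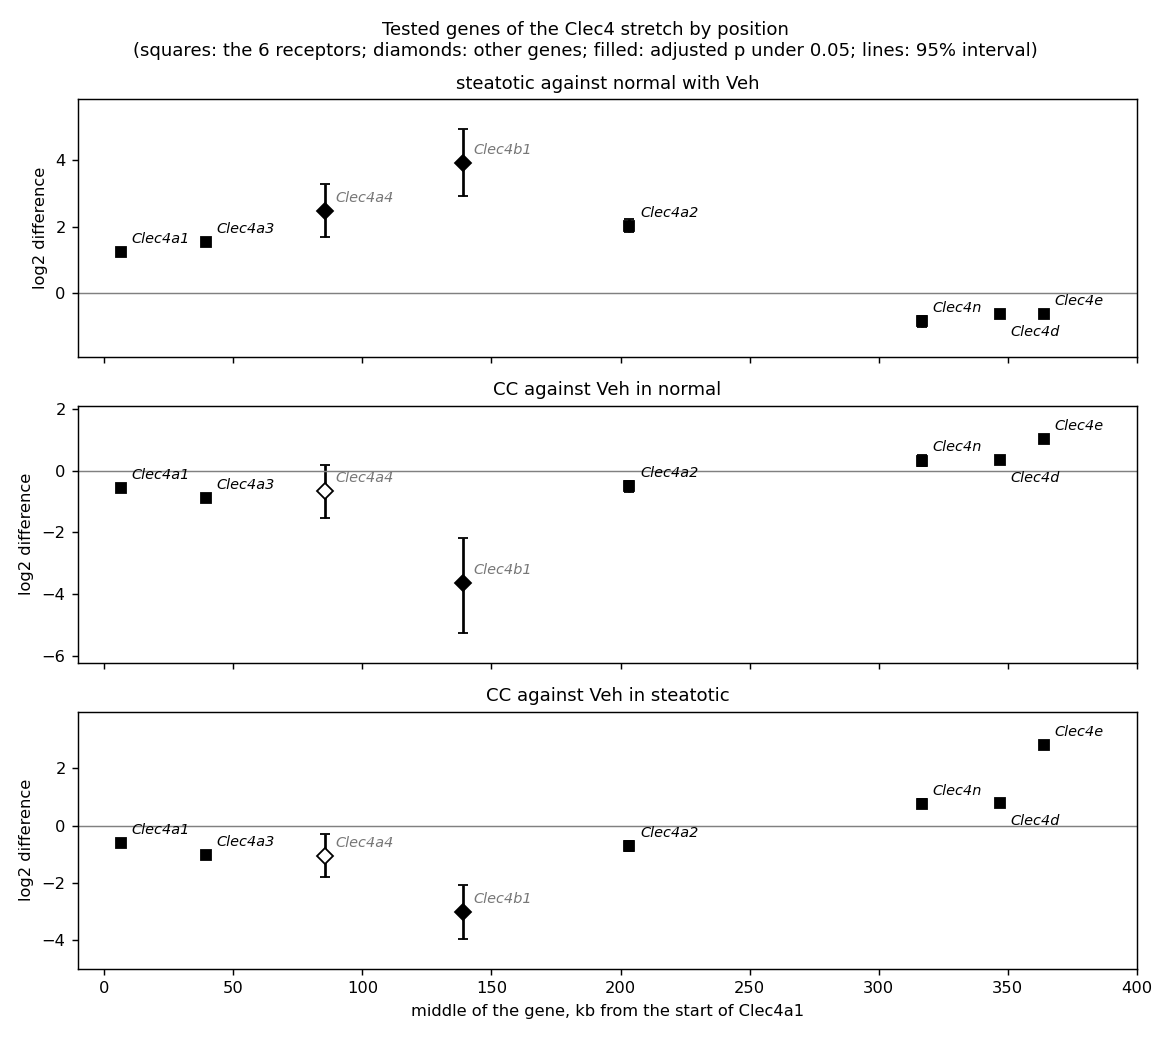
Log2 differences of the 8 tested genes of the chromosome 6 stretch against the middle of each gene, in kb from the start of *Clec4a1*, with 95% intervals; filled symbols have an adjusted p under 0.05, squares are receptors and diamonds other genes. The 5 genes on the left lie above 0 between livers with Veh and below 0 with CC, and the 3 on the right the reverse.

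The other members lie elsewhere. *Clec12a* and *Clec7a* share a second stretch of chromosome 6, chr6:129342691-129472779, of 130.1 kb, yet were called in opposite directions between the livers with Veh. *Clec5a* lies at chr6:40574894-40585821 and *Clec10a* at chr11:70156197-70170834.

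*Clec4d* and *Clec4e* are neighbours on opposite strands whose CC responses differed in size, so the 250 bases before their RefSeq starts (GRCm38.p6, 5′ to 3′ on the strand of the gene) are shown. Capitals mark matches to the motifs searched on both strands. The *Clec4e* window is chr6:123289872-123290121 on the minus strand, and the *Clec4d* window chr6:123261857-123262106 on the plus strand.
Clec4e: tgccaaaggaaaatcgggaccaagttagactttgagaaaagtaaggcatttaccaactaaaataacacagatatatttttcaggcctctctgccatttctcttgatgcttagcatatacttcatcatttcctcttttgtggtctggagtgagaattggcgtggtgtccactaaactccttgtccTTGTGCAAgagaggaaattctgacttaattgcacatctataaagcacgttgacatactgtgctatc
Clec4d: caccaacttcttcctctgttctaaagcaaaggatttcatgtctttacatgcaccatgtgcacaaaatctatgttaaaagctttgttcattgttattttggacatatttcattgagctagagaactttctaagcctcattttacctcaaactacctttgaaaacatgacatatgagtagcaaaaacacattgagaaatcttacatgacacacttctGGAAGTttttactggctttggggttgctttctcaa
The C/EBP letters TTGCNNAA occurred in the *Clec4e* window, starting 66 bases before the start, and in 9.56% of the 32851 RefSeq promoters. The ETS letters GGAAGT occurred in the *Clec4d* window, starting 35 bases before the start, and in 19.7% of promoters. Neither window held the AP-1 letters TGANTCA (6.75% of promoters), an NF-kB motif (4.65%) or the E-box letters CACGTG (6.02%). The 8 receptors with a RefSeq promoter included *Clec12a*, whose window held AP-1 and C/EBP letters but lies in its annotated exons, and *Clec4a2*, which held the ETS letters at 60 and 32 bases and whose window overlaps its annotated exons by 68 bases. *Clec4a1*, *Clec4a3*, *Clec5a* and *Clec7a* held none. The matches are letters only and were not tied to any factor.

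The signalling genes of the pathway were taken from a list of 36, of which 34 were tested. Between the livers with Veh 15 (44.1%) were higher and 3 (8.82%) lower, where all tested genes had 16.4% and 14.3%, and those with a mean log2 CPM above 3 had 19.5% and 18.2%. With CC 7 (20.6%) rose and 6 (17.6%) fell in normal macrophages, against 6.27% and 5.54% of all tested genes and 9.19% and 8.26% of those above 3. In steatotic macrophages 13 (38.2%) rose and 10 (29.4%) fell, against 12.0% and 10.9%, and 15.5% and 15.9%. The difference of the responses was called for 6, against 1.95% upward and 1.27% downward of all tested genes. Of these 6, *Cxcl2*, *Il1b*, *Nos2* and *Ptgs2* were higher and *Btk* and *Lyn* lower. The median log2 difference of the list was 0.13, 0.04, 0.01 and 0.05 in these 4 comparisons, and that of all tested genes lay between -0.01 and 0.01. No test was made of the list as a whole.

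Of the 3 adaptors none rose with CC, where 6.27% of all tested genes rose in normal and 12.0% in steatotic macrophages. *Fcer1g*, which encodes FcRγ, averaged 839 CPM in normal Veh, 752 in normal CC, 1260 in steatotic Veh and 947 in steatotic CC. It was higher in steatotic than in normal Veh (log2 0.63 ± 0.0519 SE, adjusted p = 8.46e-05 by edgeR) and fell with CC in steatotic macrophages (log2 -0.39, adjusted p = 0.00125). *Tyrobp*, which encodes DAP12, was higher in steatotic than in normal macrophages with Veh (log2 0.36, adjusted p = 0.00331) and with CC (log2 0.33, adjusted p = 0.00543). It fell with CC in normal (log2 -0.35, adjusted p = 0.00946) and steatotic macrophages (log2 -0.38, adjusted p = 0.00327). *Hcst* was not called in any comparison. Of the 6 kinases, *Syk*, which the activating receptors recruit, rose with CC with both labels (log2 0.34 ± 0.0337 SE in normal, adjusted p = 0.000702; log2 0.42 ± 0.0337 SE in steatotic macrophages, adjusted p = 0.000105). This SYK response did not pass the test of the difference (0.07 on the log2 scale, adjusted p = 0.569).

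In the CARD9 arm of 8 genes, 1 rose and 2 fell with CC in steatotic macrophages (12.0% and 10.9% of all tested genes). *Malt1*, the protease of the complex, was the one that rose (log2 1.96 ± 0.231 SE, adjusted p = 0.00187 by edgeR). It stood at log2 0.73 in normal macrophages (adjusted p = 0.11), with no call for the difference of the responses (adjusted p = 0.136). *Malt1* was higher in steatotic than in normal macrophages with Veh (log2 0.90, adjusted p = 0.0298) and with CC (log2 2.13, adjusted p = 0.0012). Its steatotic CC libraries varied widely, with a mean of 64.9 CPM and an SD of 21.4 CPM. *Card9* itself was not called with CC (log2 -0.21 in normal, -0.17 in steatotic macrophages), and neither was *Bcl10* (log2 -0.06 and 0.14). Of the 5 phosphatases none rose with CC and 2 fell in each liver. Of all tested genes, 5.54% fell in normal and 10.9% in steatotic macrophages. *Ptprc*, which encodes CD45, was higher in steatotic than in normal Veh (log2 0.95 ± 0.184 SE, adjusted p = 0.0163).

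Of the 12 tested output genes, cytokines and enzymes induced downstream, 6 rose and 1 fell with CC in normal macrophages (6.27% and 5.54% of all tested genes). In steatotic macrophages 10 rose and 1 fell (12.0% and 10.9%). The chemokine *Cxcl2* averaged 38.1 CPM in normal Veh, 104 in normal CC, 12.2 in steatotic Veh and 87.2 in steatotic CC. It was 3.04-fold lower in steatotic than in normal Veh (log2 -1.60 ± 0.0977 SE, adjusted p = 1.93e-05 by edgeR), and with CC the livers were not called different (log2 -0.23, adjusted p = 0.115). *Cxcl2* rose by log2 1.48 ± 0.0957 SE in normal (adjusted p = 0.000109 by edgeR) and 2.86 ± 0.101 SE in steatotic macrophages (adjusted p = 2.92e-06). *Ptgs2*, which encodes cyclooxygenase, rose by log2 1.18 and 2.76, with a difference of 1.58 ± 0.14 SE (adjusted p = 0.00233). *Nos2*, the inducible nitric oxide synthase, rose by 1.13 in normal macrophages, and its difference of the responses was 1.05 (adjusted p = 0.00382). *Egr2*, a transcription factor, rose in steatotic macrophages by log2 2.80 ± 0.507 SE (adjusted p = 0.0191). In normal ones it was not called (log2 1.69, adjusted p = 0.107), and the difference of its responses was not called (adjusted p = 0.578). *Il10*, an anti-inflammatory cytokine, was 1.71 higher on the log2 scale in steatotic Veh (adjusted p = 7.93e-05) and fell with CC in steatotic macrophages (log2 -0.68, adjusted p = 0.00894).

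**Figure D4:**
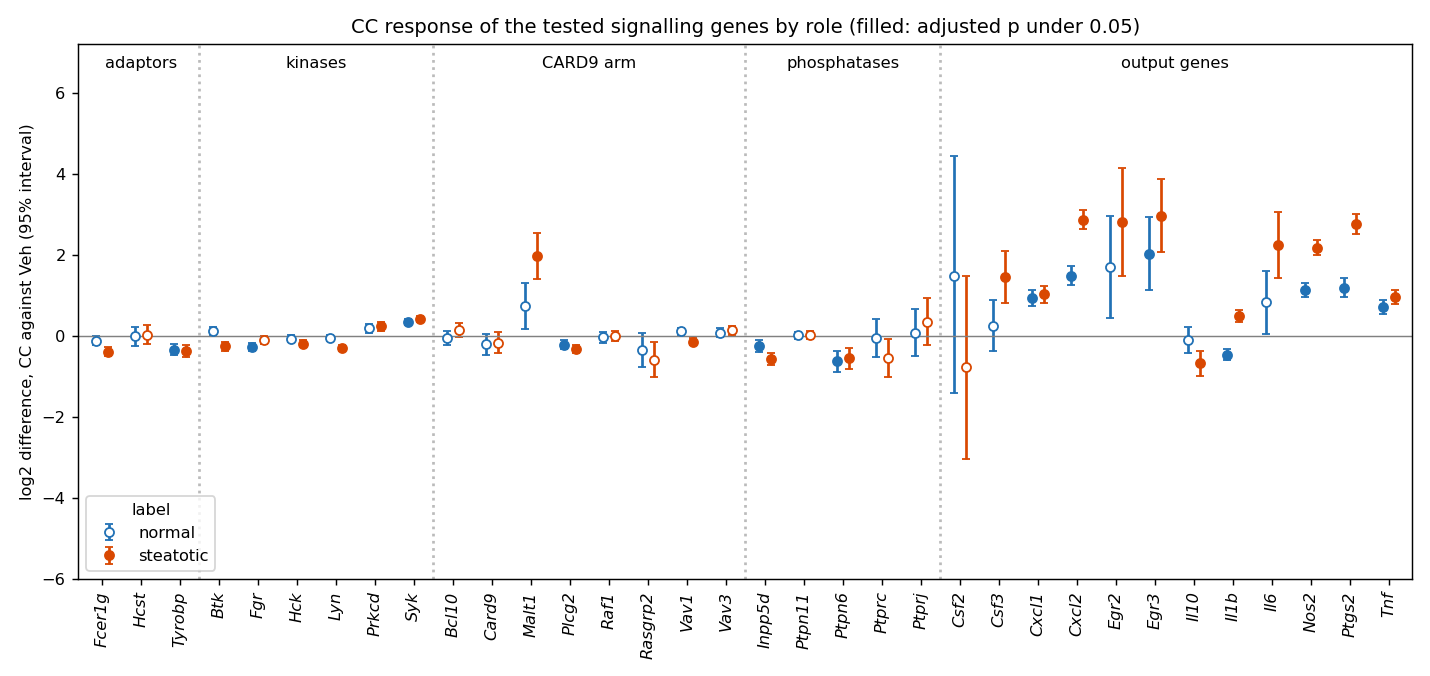
Log2 difference of CC against Veh with 95% intervals for the 34 tested signalling genes by role, in normal (blue) and steatotic (orange) macrophages; filled points have an adjusted p under 0.05. Most of the output genes lie above 0, with *Cxcl2* at 1.48 and 2.86, while the adaptors lie near or below it.

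Of 30 other C-type lectins, 18 were tested. Between the livers with Veh 8 were higher and 4 lower (16.4% and 14.3% of all tested genes). With CC 2 rose and 5 fell in normal (6.27% and 5.54%), and 3 rose and 6 fell in steatotic macrophages (12.0% and 10.9%). The difference of the responses was called upward for 1 and downward for 4 (1.95% and 1.27%). The upward one was *Ly75*, which encodes the endocytic receptor DEC-205. *Ly75* rose 2.73-fold in normal (adjusted p = 0.00041 by edgeR) and 6.28-fold in steatotic macrophages (adjusted p = 9.38e-06), with a difference of 1.20 on the log2 scale (adjusted p = 0.012). *Cd207*, which encodes langerin, averaged 81 CPM in normal Veh, 45.6 in normal CC, 53 in steatotic Veh and 10.2 in steatotic CC, and its fall was larger in steatotic macrophages (difference -1.56 ± 0.121 SE on the log2 scale, adjusted p = 0.00153 by edgeR). *Cd72*, an inhibitory lectin, fell by log2 -0.86 in normal and -1.98 in steatotic macrophages, with a difference of -1.11 (adjusted p = 0.000119). *Mrc1*, the mannose receptor, averaged 373, 216, 436 and 139 CPM in the same order, with a difference of -0.89 (adjusted p = 0.00121). *Clec4f*, a Kupffer cell lectin, fell by log2 -0.78 in normal (adjusted p = 0.000783) and -0.98 in steatotic macrophages (adjusted p = 0.000104). Between the livers with Veh, *Cd93* was higher (log2 1.63, adjusted p = 5.77e-07) and *Colec12*, a scavenger receptor, lower (log2 -1.64, adjusted p = 1.65e-06).

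For each receptor the gene with the most similar pattern was found by Pearson's r of log2 CPM over the 8 libraries, which share groups and depth, so r is a description only. *Clec4e* was most like *Ptges* (r = 0.9961), *Clec4d* most like *Nus1* (0.9968), *Clec4n* most like *Cybb* (0.9973) and *Clec5a* most like *Slc7a2* (0.9969). *Clec4a3* was most like *Samhd1* (0.999), *Clec4a2* most like *Sp100* (0.9987), *Clec4a1* most like *Myo1g* (0.9969) and *Clec12a* most like *Gm2a* (0.9984). *Clec7a* was most like *2510009E07Rik* (0.9958) and *Clec10a* most like *Gm4951* (0.9933). Within the 10, *Clec4a3* and *Clec12a* had an r of 0.999, whereas *Clec4e* and *Clec4d* had 0.75.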

How the data were processed

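Hepatic macrophages were profiled in 8 libraries, 2 per group. The authors' processing notes and methods name fastp for trimming, HISAT2 for alignment to mm10 and StringTie for quantification. The deposited values are estimated counts (expected counts), whole numbers for each gene, and how coverage was turned into counts is not given in the sources used here. Groups and replicate numbers came from the labels.

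Counts were used as deposited, and CPM are counts scaled by the library total, so that 3 counts stand for 0.0403 to 0.0511 CPM (counting error only). The filter was 0.5 CPM in 1 or more libraries. Genes that passed were tested with edgeR 4.0.16 in R 4.3.3 (glmQLFit with robust estimation, glmQLFTest, TMM, 4 group means, 8 libraries) in 5 contrasts, with Benjamini-Hochberg adjustment over all 15202 tested genes and a threshold of 0.05. Standard errors are on the log2 scale, from the fitted fold change and the F statistic. The script was tested on simulated data. DESeq2 1.42.0, other scalings, filters, count scales, a replicate block and fits without each library were alternatives. Replicate libraries of a group had a Pearson r of 0.9827 to 0.985 in log2 CPM and differed by more than sampling noise.

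The receptors and the lists of other genes were chosen with earlier results of these data known. Named genes of the signalling and lectin lists were, per contrast, the 3 of largest absolute log2 fold change that passed the threshold and had a mean log2 CPM above 3, with adaptors and CARD9 arm genes added. *Syk*, *Vsig4*, *Dcn* and the other markers, *Ly75*, *Btk*, *Lyn*, *Il1b*, *Clec4a4*, *Clec4b1* and *Clec4b2* were named outside this rule, after their values were seen. Positions are from GENCODE M21 and promoters from RefSeq. Figures were drawn with matplotlib 3.10.9.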

Additional observations from a re-analysis of the deposited data

Results flagged for a closer look

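The CC responses of *Clec4e* and *Clec4d* differed between macrophages labelled normal and steatotic by the test of the difference itself (edgeR's quasi-likelihood test with Benjamini-Hochberg adjustment, 2 libraries per group). For *Clec4e* the difference was 1.775 on the log2 scale (adjusted p = 6.79e-05), and it lay between 1.74 and 1.81 over 16 alternatives. For *Clec4d* it was 0.433 (adjusted p = 0.0123), between 0.38 and 0.48. Among the markers of other cells, several were highest in the same libraries as *Clec4e*. *Mmp8* stood at 241 and 243 CPM in steatotic CC and at most 98 CPM elsewhere, *Vcan* at 33.4 and 37.6 CPM and at most 15.5, *S100a8* at 18.4 and 19.2 CPM and at most 14.9, *Kdr* at 52 and 47.5 CPM and at most 34.2, and *Dcn* at 135 and 108 CPM and at most 20.8. The difference of the responses was called for *Vcan* (log2 1.82, adjusted p = 0.00266), *S100a8* (1.31, adjusted p = 0.0101) and *Mmp8* (0.67, adjusted p = 0.00412), and not for *Dcn* (1.06, adjusted p = 0.057) or *Kdr* (0.24, adjusted p = 0.568). *Ly6g* was at 0 in all libraries, and *Lrat* and *Des* were at 0 in steatotic CC. Other members of these lists did not follow. The endothelial marker *Pecam1* fell from 96.1 and 94.3 CPM in steatotic Veh to 35.5 and 40.7 CPM in steatotic CC. Its difference of the responses was log2 -1.195 (adjusted p = 0.00368 by edgeR). Of the 7 monocyte markers, 1 rose and 1, *Ccr2*, fell with CC in steatotic macrophages (12.0% and 10.9% of all tested genes). The monocyte sum was 144 and 139 CPM in steatotic Veh and 121 and 140 CPM in steatotic CC. The part of these cells in the receptor levels was not tested.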

How the results depend on the processing

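Of 840 log2 differences of receptors under 17 alternatives, 820 kept their direction and side of the threshold. Losses of a call numbered 15, each when 1 library was left out, which leaves a group with 1 library assumed to vary like the others. They concerned *Clec4n*, *Clec10a* and *Clec4a2* with CC in normal macrophages, *Clec10a* with CC in steatotic ones, *Clec5a* between livers with Veh, and *Clec4d* between livers with CC (adjusted p 0.0971 and 0.111) and in the difference of the responses. The number of receptors called in that difference was 2, and 1 to 3 when a library was left out, with 1 without normal CC replicate 2 and 3 without steatotic CC replicate 1. *Clec4n* passed in that difference with DESeq2 (adjusted p = 0.0179), with no filter on low counts (0.0377) and without steatotic CC replicate 1 (0.0115). The uncalled difference of *Clec10a* turned from 0.17 to -0.08 without normal CC replicate 1 and to -0.17 without steatotic CC replicate 1, with a range of -0.17 to 0.47 (0.465 without normal CC replicate 2) over the fits without a library, and the cause was not tested.

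Libraries with the same replicate number did not deviate together (correlations from -0.032 to 0.043), so the numbers were not taken as pairs. With a replicate block the receptors called numbered 10 between livers with Veh, 9 and 10 with CC in normal and steatotic macrophages, 2 in the difference of the responses and 10 between livers with CC, as without it. The signalling genes called with the replicate block numbered 19, 13, 24 and 6, where the fit without it gave 18, 13, 23 and 6. With 2 libraries per group, small differences between groups could go undetected.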
